A study of Mus musculus with 17 samples.

Results

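Blood vessels of the brain are tubes of endothelial cells wrapped by pericytes and smooth muscle cells, together called mural cells. Brain endothelium differs from that of other organs in its tight junctions and selective transporters, which form the blood-brain barrier, and this barrier matures under signals from neural cells, glia and pericytes while vessels grow into the young brain by sprouting. In the first days after birth the mouse cerebellum grows through division of granule neuron progenitors, and its vessels grow with it. The RNA of 10 listed vascular genes was followed here, out of 31517 genes in all. They form a list of vascular genes that was drawn up with earlier results of these data known. Cldn5, Pecam1 and Cdh5 mark endothelial junctions, Kdr, Flt1 and Tek encode growth factor receptors of endothelium, Mfsd2a and Slc2a1 encode barrier transporters, and Pdgfrb and Rgs5 mark pericytes.

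RNA of 17 samples of whole cerebellum of C57BL/6 mice at postnatal day 3 was sequenced after the meninges had been removed. Of 5 samples the genotype was Math1-Cre with Atr-loxP/loxP, Bax-loxP/loxP and Bak--/-, and 4 controls carried Math1-Cre with Bax-loxP/loxP and Bak--/- but no loxP-flanked Atr. A further 5 samples carried Math1-Cre with Atr-loxP/loxP and p53-loxP/loxP, and 3 controls carried Math1-Cre with p53-loxP/loxP. They are called Atr-deleted Bax/Bak libraries, Bax/Bak controls, Atr-deleted p53 libraries and p53 controls below, after their labels. Atr encodes a kinase that guards stalled replication forks, Bax and Bak are effectors of apoptosis, and p53 is a stress-activated transcription factor. Math1 is expressed in granule neuron progenitors, so that Cre acts chiefly in that lineage, and vessel cells are not part of it. Bak--/- is written as a null allele without loxP sites, which every cell of those mice would carry, and there was no group without a deleted gene. The labels do not say whether samples were separate litters or pooled animals, so p-values measure the spread between samples only.

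Estimated counts totalled 42987953 to 100659645 in each of 16 libraries. Replicate 3 of the Atr-deleted p53 libraries held 13601 counts and was left out, which leaves 4 libraries in that group. The sample name of that replicate repeats the name of replicate 1 with a suffix, and the labels do not say whether both came from 1 animal. In the library left out 4 counts fell on Rgs5 and none on the other members, where a count of 0 allows up to 221 CPM (counts scaled to library size, with TMM factors). RNA of the loxP-flanked Atr was 40.0 ± 3.07 CPM in Atr-deleted Bax/Bak libraries (SD, n = 5) and 43.4 ± 3.99 CPM in their controls (n = 4), and 37.1 ± 2.83 CPM in Atr-deleted p53 libraries (n = 4) and 37.0 ± 1.11 CPM in theirs (n = 3), so the summed count of this gene does not show the deletion. Bak1, deleted in all cells of the Bax/Bak background, was at 0.435 ± 0.140 CPM in Atr-deleted Bax/Bak libraries and 0.365 ± 0.152 CPM in Bax/Bak controls, beside 38.3 ± 3.99 CPM in Atr-deleted p53 libraries and 39.6 ± 2.01 CPM in p53 controls. The loxP-flanked Bax was at 32.4 ± 4.44 CPM in Atr-deleted Bax/Bak libraries and 34.0 ± 2.51 CPM in Bax/Bak controls. It was at 65.3 ± 8.29 CPM in Atr-deleted p53 libraries and 66.3 ± 1.80 CPM in p53 controls. Trp53, the p53 gene, was at 38.5 ± 6.73 CPM in Atr-deleted p53 libraries and 37.6 ± 1.61 CPM in p53 controls. It was at 69.5 ± 5.52 CPM in Atr-deleted Bax/Bak libraries and 68.8 ± 4.87 CPM in Bax/Bak controls. All 13 markers of cycling granule progenitors averaged at least 1 CPM in each group. In whole tissue, fewer cells of a type and less RNA per cell cannot be told apart.

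All 10 genes were detected in each of the 16 libraries. Per transcript length and over all 16 libraries, in TPM (counts per kilobase, scaled to the same total in each library), Cldn5, the main claudin of brain endothelium, was highest with a mean of 126 (range 69.2 to 155). Rgs5, a regulator of G-protein signalling in pericytes, followed with a mean of 110 TPM (67.1 to 149). Slc2a1, the glucose transporter of the barrier, had 38.7 TPM (20.2 to 54.3), and Mfsd2a, which carries lysophospholipids bound to the fatty acid DHA, had 33.2 TPM (17.8 to 49.0). Cdh5 (29.0 TPM), Kdr (27.0), Pecam1 (24.3), Pdgfrb (16.04), Tek (12.7) and Flt1 (10.99) followed in this order of mean level. Neighbours in this order overlapped in range except Rgs5 and Slc2a1, and the order was not the same in each group. In Atr-deleted Bax/Bak libraries Rgs5 averaged 141 ± 9.79 TPM and Cldn5 139 ± 12.4 TPM (SD, n = 5), and in Atr-deleted p53 libraries Pecam1 averaged 19.98 TPM, Kdr 19.5 TPM and Cdh5 19.1 TPM. These levels sum all transcripts of a gene. For Slc2a1 the transcript Slc2a1-201, which encodes 492 residues, held 48.6% to 53.5% of the sum as group means. Slc2a1-204, annotated for nonsense-mediated decay with 173 coded residues, held 45.4% to 50.4%, so the sum overstates the RNA that encodes the full transporter.

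Whether loss of Atr in granule progenitors went with a change in these vessel genes was tested first in the Bax/Bak background. Mfsd2a, Pdgfrb, Tek and Rgs5 were higher in the Atr-deleted libraries by 1.14-fold to 1.28-fold, and none of the 10 was lower. The junction genes Cldn5, Pecam1 and Cdh5, the receptors Kdr and Flt1 and the transporter Slc2a1 did not pass the test. These 4 calls of 10 stand against 44.5% called of all genes, 22.5% higher and 22% lower, by the same edgeR test at an adjusted p below 0.05, so a share of 4 in 10 is near the background. The median log2 fold change of the members was 0.14, beside 0.04 over all genes tested.

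**Figure D1:**
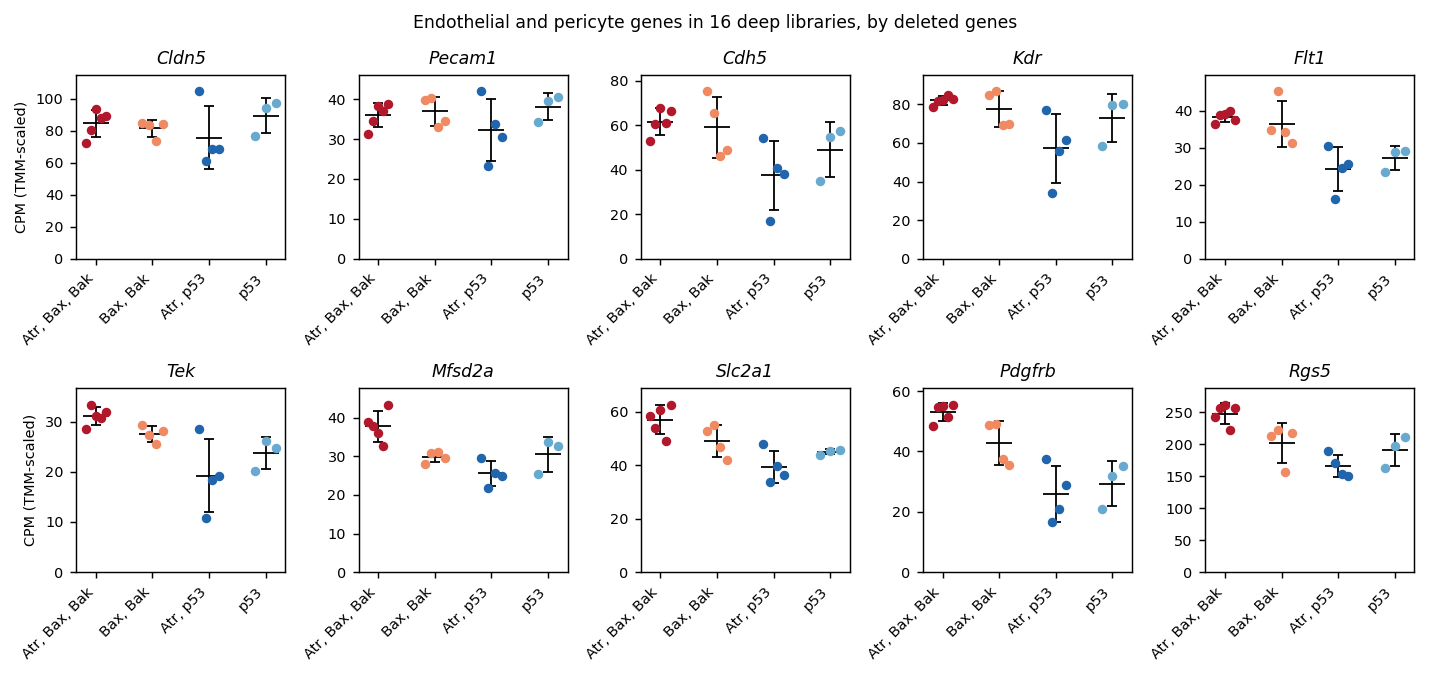
CPM (TMM-scaled, each axis starting at 0) of each gene in the 16 deep libraries, 1 point per library in replicate order, with the group mean and SD. The 5 Atr-deleted Bax/Bak libraries lie above their 4 controls for Mfsd2a and Rgs5, and replicate 2 of the Atr-deleted p53 libraries, the second point of that group, is lowest of all 16 for each gene but Rgs5.

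Mfsd2a was measured at 38.9, 37.9, 36.0, 32.6 and 43.4 CPM in the 5 Atr-deleted Bax/Bak libraries, against 27.9, 30.9, 31.02 and 29.6 CPM in the 4 controls. Every Atr-deleted library was above every control. The log2 fold change was 0.36 ± 0.08 (SE, edgeR adjusted p = 0.00296). Mfsd2a passed in each of the 18 alternative settings and samplings tried. Rgs5 was at 243, 256, 262, 222 and 256 CPM in Atr-deleted libraries and at 212, 221, 156 and 218 CPM in controls, also without overlap, although the lowest Atr-deleted library and the highest control differed by less than the spread within either group. It rose by 0.31 ± 0.10 on the log2 scale (adjusted p = 0.0288). Groups failed to overlap for these 2 of the 10 genes, beside 38.3% of all genes tested.

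Pdgfrb encodes the PDGF-B receptor through which endothelium recruits pericytes. Its 5 Atr-deleted libraries had 48.4, 54.6, 55.0, 51.5 and 55.5 CPM, and its controls had 48.8, 49.1, 37.6 and 35.5 CPM. The controls formed a higher and a lower pair, and the higher pair reached the lowest Atr-deleted library. Its log2 fold change was 0.33 ± 0.10 (adjusted p = 0.0221). Tek, the receptor of the angiopoietins, was at 28.5, 33.4, 31.1, 30.7 and 31.9 CPM in Atr-deleted libraries, against 29.4, 27.3, 25.5 and 28.1 CPM in controls. One Atr-deleted library lay within the controls' range, and the log2 fold change was 0.19 ± 0.06 (adjusted p = 0.0238).

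Slc2a1 had 58.5, 54.1, 60.7, 49.1 and 62.7 CPM in Atr-deleted libraries and 52.7, 55.0, 46.7 and 41.9 CPM in controls. The groups overlapped and the log2 fold change of 0.24 ± 0.09 had an adjusted p of 0.0586. Cldn5 averaged 84.7 ± 8.36 CPM in Atr-deleted libraries and 81.4 ± 5.32 CPM in controls. Pecam1, an adhesion molecule of endothelial junctions, averaged 36.0 ± 3.09 CPM in Atr-deleted libraries and 36.9 ± 3.71 CPM in controls. Cdh5, the cadherin of the same junctions, averaged 61.7 ± 5.92 CPM in Atr-deleted libraries and 59.1 ± 13.8 CPM in controls. Kdr, the main VEGF-A receptor, averaged 82.0 ± 2.24 CPM in Atr-deleted libraries and 77.6 ± 9.38 CPM in controls, and Flt1, a VEGF receptor that acts largely as a decoy, 38.3 ± 1.37 CPM in Atr-deleted libraries and 36.4 ± 6.08 CPM in controls. The log2 fold changes of these 5 genes lay between -0.02 and 0.10 with adjusted p from 0.282 to 0.877. The spread of Kdr and Flt1 was smaller among the 5 Atr-deleted libraries than among the 4 controls.

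The promoters of 7 of the 10 genes were in the RefSeq table used here (GRCm38.p6, 250 bases before to 50 after the start). They are shown for 3 of the genes called higher, Mfsd2a, Tek and Rgs5, and for Cldn5, which did not pass the test. The windows of Kdr, Flt1 and Slc2a1, which also did not pass, are not shown. Each is written 5′ to 3′ along the gene's own strand, with capitals marking matches to CAGGAA or CCGGAA on either strand. These are only some of the forms bound by ETS factors, a family active in endothelium. Mfsd2a lies at chr4:122961139-122961438 on the minus strand, Tek at chr4:94739039-94739338 on the plus strand, Rgs5 at chr1:169655251-169655550 on the plus strand and Cldn5 at chr16:18776597-18776896 on the plus strand.
Mfsd2a: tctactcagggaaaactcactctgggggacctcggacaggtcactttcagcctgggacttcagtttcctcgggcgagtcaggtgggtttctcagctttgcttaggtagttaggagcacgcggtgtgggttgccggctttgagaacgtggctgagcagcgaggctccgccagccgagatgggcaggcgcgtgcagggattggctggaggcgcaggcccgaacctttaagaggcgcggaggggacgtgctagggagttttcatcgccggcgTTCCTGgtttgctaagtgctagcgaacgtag
Tek: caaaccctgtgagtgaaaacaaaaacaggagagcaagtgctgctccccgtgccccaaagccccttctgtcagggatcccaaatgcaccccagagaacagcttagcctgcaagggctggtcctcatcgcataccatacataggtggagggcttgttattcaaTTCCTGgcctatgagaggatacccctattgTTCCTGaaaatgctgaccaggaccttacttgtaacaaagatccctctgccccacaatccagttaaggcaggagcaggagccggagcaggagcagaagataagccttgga
Rgs5: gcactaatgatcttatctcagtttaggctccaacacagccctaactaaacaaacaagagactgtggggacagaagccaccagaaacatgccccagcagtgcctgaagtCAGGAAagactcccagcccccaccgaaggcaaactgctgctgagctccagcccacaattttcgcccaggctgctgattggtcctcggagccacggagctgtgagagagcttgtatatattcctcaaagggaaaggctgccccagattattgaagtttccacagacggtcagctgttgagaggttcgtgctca
Cldn5: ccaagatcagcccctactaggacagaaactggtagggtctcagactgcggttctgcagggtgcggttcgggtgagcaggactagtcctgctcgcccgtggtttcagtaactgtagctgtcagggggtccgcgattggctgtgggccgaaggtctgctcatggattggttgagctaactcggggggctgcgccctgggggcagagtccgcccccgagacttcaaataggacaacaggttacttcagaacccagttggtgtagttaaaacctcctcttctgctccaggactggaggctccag

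CAGGAA matched at 2 places in the Tek window, 1 in Mfsd2a and 1 in Rgs5. CCGGAA matched at 1 place in the window of Kdr, which was not called, while Cldn5, Flt1 and Slc2a1 had neither. GGAA with other flanking bases was not counted, and the Flt1 window holds it, so a window without a match may still hold other ETS forms. Of 32851 promoters of this length, 30.55% held CAGGAA, 14.9% CCGGAA and 41.37% either, beside 4 of the 7 windows here. ACGTG, the core of the hypoxia-response element, occurred at 2 places in the Mfsd2a window and 1 in that of Slc2a1 (19.62% of all promoters). ACAAT, a core bound by SOX factors, occurred at 2 places in Tek, 1 of them overlapping an ETS match, and at 1 in Rgs5 (31.02% of all promoters). All motifs were searched on both strands, and a match is a description of letters, not of a bound site.

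The calls in the Bax/Bak background depended on which controls were used. The sample names carry number prefixes, whose meaning the labels do not give. The 5 Atr-deleted libraries share 1 prefix, 1836, and the controls have 2 others, 100019 (replicates 1 and 2) and 1842 (replicates 3 and 4), so prefix and genotype cannot be told apart. Pdgfrb averaged 52.99 CPM in Atr-deleted libraries, 49.0 CPM in the 100019 controls and 36.5 CPM in the 1842 controls. Cdh5 averaged 61.7 CPM in Atr-deleted libraries, 70.5 CPM in the 100019 controls and 47.7 CPM in the 1842 controls. Against the 100019 controls alone 2 members were called, Mfsd2a and Rgs5, and against the 1842 controls alone 7 were. Of all genes 7352 were called against the 100019 controls alone and 8053 against the 1842 controls alone, beside 7756 with all controls. The log2 fold change of Mfsd2a was 0.38 against the 100019 controls and 0.29 against the 1842 controls, that of Rgs5 was 0.21 against 100019 and 0.37 against 1842, and that of Pdgfrb was 0.13 against 100019 and 0.51 against 1842. The call of Pdgfrb also ended without control replicate 3 or 4 or Atr-deleted replicate 5 (adjusted p 0.0516 to 0.0625). That of Rgs5 ended without control replicate 1 or Atr-deleted replicate 2, 3 or 5 (0.0614 to 0.0792), and that of Tek without control replicate 2 or 3 or Atr-deleted replicate 2 or 5 (0.0535 to 0.0974).

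RNA of other cell types also moved between these libraries. The summed CPM of 10 meningeal and fibroblast markers was 979 to 1187 in Atr-deleted libraries and 726 to 1990 in controls, with the 100019 controls highest. None of the 10 was called with all controls (edgeR; 1 at an unadjusted p below 0.05, 1 by DESeq2 and 0 by limma-voom), but 9 were lower against the 100019 controls alone and 6 were higher against the 1842 controls alone. Over all genes, 9036 of 17425 tested had an unadjusted edgeR p below 0.05 with all controls. The sum of 13 cycling progenitor markers was 1427 to 1763 CPM in Atr-deleted libraries, against 2551 to 2803 CPM in controls, and 12 of them fell, while Gli1, a target of hedgehog signalling, rose by 0.32 ± 0.08. Of 12 astrocyte and Bergmann glia markers 10 rose and Fabp7 fell by 0.15 ± 0.05 (adjusted p = 0.0463), with sums of 5747 to 7226 CPM in Atr-deleted libraries and 4421 to 4795 CPM in controls. Of 16 microglia and macrophage markers 8 rose (sums of 239 to 288 CPM in Atr-deleted libraries and 173 to 273 CPM in controls), and of 5 oligodendrocyte precursor markers 4 rose and Pdgfra, a PDGF receptor, fell by 0.35 ± 0.05 (sums of 379 to 469 CPM in Atr-deleted libraries and 333 to 351 CPM in controls). Fabp7 was not called against either control pair alone, nor Gli1 against the 1842 controls alone. Against the 100019 controls alone 7 of the 16 microglia and macrophage markers rose and 5 fell, and against the 1842 controls alone 12 rose. Red cell markers, which would follow blood left in the tissue, summed to 349 to 502 CPM in Atr-deleted libraries and 283 to 784 CPM in controls. Choroid plexus markers summed to 149 to 3250 CPM in Atr-deleted libraries and 165 to 4296 CPM in controls. Each marker of these lists had counts in both groups. The part of these cell types in the change of the 4 genes was not tested.

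**Figure D2:**
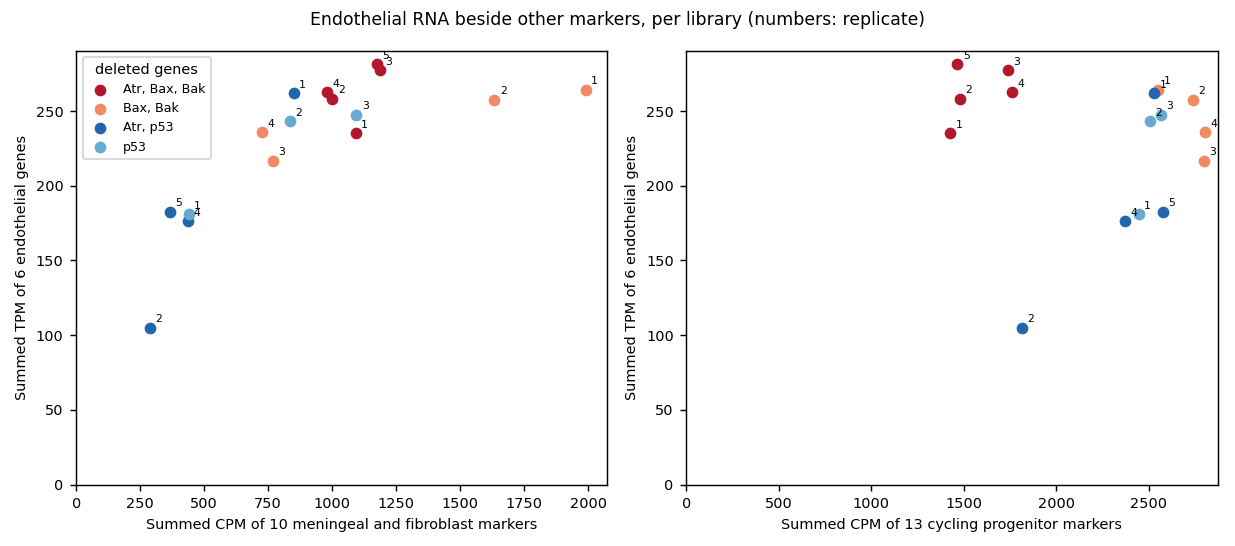
Summed TPM of Cldn5, Pecam1, Cdh5, Kdr, Flt1 and Tek in each of the 16 deep libraries, against the summed CPM of meningeal markers (left) and cycling progenitor markers (right), 1 point per library with its replicate number, all axes starting at 0. Replicate 2 of the Atr-deleted p53 libraries, at 105 TPM, has the lowest endothelial sum and the lowest meningeal sum (287 CPM). The TPM carry no TMM factors, unlike the CPM.

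The other vascular genes were examined by lists. Of 23 other endothelial identity genes 11 rose and 2 fell in the Atr-deleted Bax/Bak libraries (median log2 fold change 0.32). Egfl7, a secreted factor of endothelium, rose by 0.51 ± 0.07 to 29.4 ± 1.53 CPM in Atr-deleted libraries, against 21.0 ± 1.64 CPM in controls (adjusted p = 0.000132). Nos3, the endothelial nitric oxide synthase, was at 17.2 ± 1.118 CPM in Atr-deleted libraries and 12.6 ± 0.620 CPM in controls (log2 fold change 0.47 ± 0.07, adjusted p = 0.000244). The transcription factor gene Sox17 (0.67 ± 0.11) and Vwf, which encodes a clotting factor stored in endothelium (0.65 ± 0.15), rose as well, and the 2 that fell were Myct1 (-0.53 ± 0.15) and Cd34, a surface sialomucin (-0.28 ± 0.06). Against the 100019 controls alone 9 of the 23 rose and 3 fell, and against the 1842 controls alone 14 rose and 1 fell. Of 9 vascular basement membrane genes 6 rose and none fell (median 0.34), among them Nid1 by 0.54 ± 0.07 and Col4a2, a chain of type IV collagen, by 0.52 ± 0.09. Hspg2, the gene of the proteoglycan perlecan, rose by 0.74 ± 0.14. Against the 100019 controls alone 3 of these 9 rose and 2 fell, and against the 1842 controls alone 8 rose. Of 15 other pericyte and smooth muscle genes 5 rose and none fell (median 0.27). Cspg4, which encodes the NG2 proteoglycan, was at 42.9 ± 1.121 CPM in Atr-deleted libraries, against 17.0 ± 1.004 CPM in controls (log2 fold change 1.35 ± 0.05, adjusted p = 2.18e-07). It is made by pericytes and by oligodendrocyte precursors and stood on both lists. Notch3, a receptor of mural cells, rose by 0.79 ± 0.06 (adjusted p = 4.66e-06), and Myh11, the myosin heavy chain of smooth muscle, by 1.25 ± 0.27 (adjusted p = 0.00342). Against the 100019 controls alone 3 of the 15 rose and 2 fell, and against the 1842 controls alone 8 rose.

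Signals to the vessels were mixed. Of 19 angiogenic ligands, receptors and Notch genes 4 rose and 4 fell (median 0.09). The smallest p belonged to Notch1, which rose by 0.84 ± 0.05 on the log2 scale, and the Notch target Hey1, which fell by 0.60 ± 0.06, and neither gene is particular to vessels. Angpt1, the activating ligand of Tek, rose by 0.47 ± 0.09 and Pdgfb, the ligand of Pdgfrb, by 0.60 ± 0.07. The growth factor genes Vegfc, Pgf and Apln fell by 0.58 ± 0.07, 0.61 ± 0.12 and 0.40 ± 0.12. Against either control pair alone 7 rose, and 7 fell against the 100019 pair and 5 against the 1842 pair. Of 15 hypoxia-response genes 5 rose and 2 fell (median 0.04), with 3 higher and 3 lower against the 100019 controls alone and 7 higher and none lower against the 1842 controls alone. Vegfa, the ligand of Kdr and Flt1 and a member of both lists, was at 59.6 ± 6.08 CPM in Atr-deleted libraries and 40.4 ± 5.68 CPM in controls (0.58 ± 0.10, adjusted p = 0.000870), and Car9, a carbonic anhydrase induced by low oxygen, at 3.03 ± 0.297 CPM in Atr-deleted libraries and 1.19 ± 0.190 CPM in controls (1.35 ± 0.15, adjusted p = 5.31e-05). Of 15 genes of the Wnt and norrin signals that induce the barrier 7 rose and 1 fell (median 0.21), with Axin2, a target of Wnt signalling, at 0.38 ± 0.06 and Tspan12, a co-receptor for norrin, at 0.27 ± 0.05. The ligand genes Wnt7a and Wnt7b rose by 0.72 ± 0.17 and 0.35 ± 0.08, and Ndp, which encodes norrin, fell by 0.23 ± 0.07. Of these 15 genes 5 rose and 2 fell against the 100019 controls alone, and 9 rose and 1 fell against the 1842 controls alone. Of 19 other barrier transport and junction genes 7 rose and 2 fell (median 0.09), with the efflux pump gene Abcc4 at 0.58 ± 0.09 and Spock2, the gene of a secreted proteoglycan, at 0.37 ± 0.07. Abcb1a, which encodes the efflux pump P-glycoprotein, rose by 0.25 ± 0.09, and Abcg2, another efflux pump gene, fell by 0.28 ± 0.08. Against the 100019 controls alone 4 of the 19 rose and 4 fell, and against the 1842 controls alone 6 rose and 2 fell. Shares called in these lists are to be read against the 44.5% of all genes. Counts against 1 control pair are to be read against the 7352 (100019) and 8053 (1842) of all genes called in those fits.

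**Figure D3:**
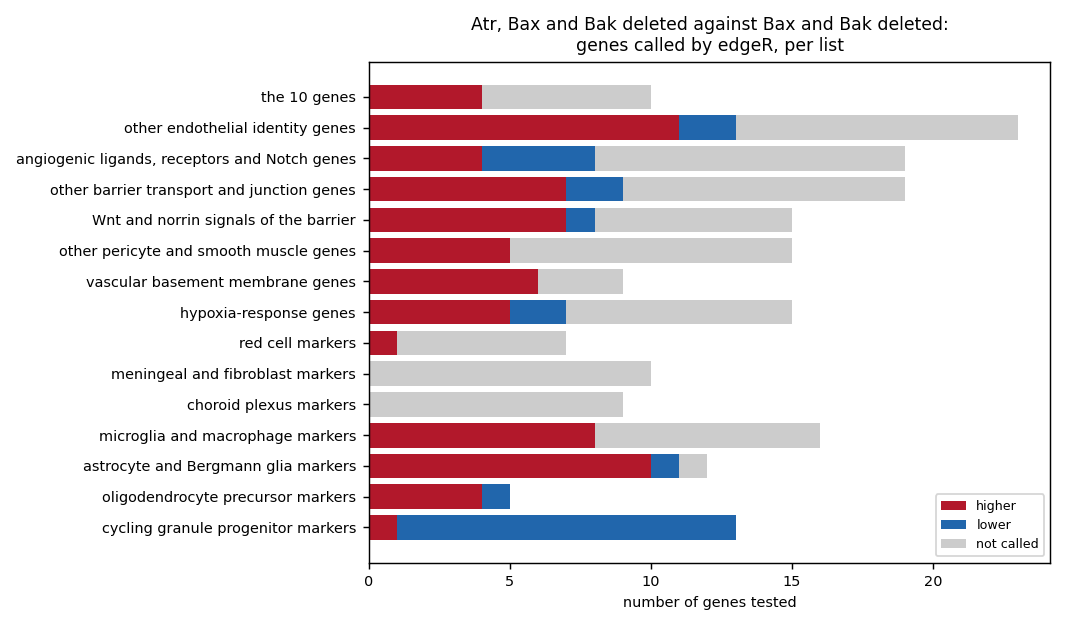
Number of genes tested in each list that were higher, lower or not called in Atr-deleted Bax/Bak libraries against Bax/Bak controls (edgeR, adjusted p below 0.05). Of the 10 genes 4 were higher, of the basement membrane genes 6 of 9, and of the cycling progenitor markers 12 of 13 were lower.

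In the p53 background none of the 10 genes passed the test. All 10 had lower means in the Atr-deleted libraries, by 0.16 to 0.38 on the log2 scale (adjusted p 0.801 to 0.906), with a median of -0.23 beside 0.01 over all genes. By edgeR none had an unadjusted p below 0.05, beside 1142 of 17361 genes tested. DESeq2 and limma-voom called none of the 10, beside 128 and 4 of all genes. Of all genes edgeR called 0.0461%, all of them higher and 0% lower, and groups did not overlap for 8.21% of all genes but for none of the 10. Mfsd2a was at 29.6, 21.9, 25.8 and 25.03 CPM in the 4 Atr-deleted libraries and at 25.4, 33.7 and 32.6 CPM in the 3 controls. Rgs5 was at 189, 170.2, 153 and 151 CPM in Atr-deleted libraries and at 163, 196 and 211 CPM in controls. In both genes the first control fell among the Atr-deleted libraries and the other 2 were above all of them.

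One library set the low end. In TMM-scaled CPM, replicate 2 of the Atr-deleted p53 libraries was lowest of all 16 for 9 of the 10 genes. Cdh5 was at 54.1, 17.0, 41.0 and 38.0 CPM in the 4 Atr-deleted libraries, against 35.0, 54.9 and 57.3 CPM in controls, and Kdr at 77.1, 33.9, 55.9 and 61.5 CPM in Atr-deleted libraries, against 58.6, 79.8 and 80.3 CPM in controls. Pdgfrb was at 37.6, 16.6, 21.0 and 28.8 CPM in Atr-deleted libraries, against 21.1, 31.8 and 35.1 CPM in controls, and Cldn5 at 104.6, 60.9, 68.4 and 68.8 CPM in Atr-deleted libraries, against 76.9, 94.1 and 97.3 CPM in controls. Replicate 1 was the highest of the Atr-deleted libraries and replicate 1 the lowest of the controls for each of these 4 genes. In the meningeal marker sum the same libraries were lowest and highest of their groups, at 287 CPM in Atr-deleted replicate 2, 850 CPM in Atr-deleted replicate 1 and 439 CPM in control replicate 1. Cycling progenitor markers summed to 1815 CPM in Atr-deleted replicate 2, the lowest of its group, and to 2446 to 2564 CPM in controls. The part of these in the values of the 10 genes was not tested. Without Atr-deleted replicate 2 the log2 fold change was -0.13 for Cdh5, -0.16 for Kdr, -0.09 for Tek, -0.18 for Mfsd2a and -0.20 for Rgs5, that of Pdgfrb was 0.00 and the median of the 10 was -0.13. Without Atr-deleted replicate 1 the median was -0.39, and the estimate for Cldn5 was -0.43 (adjusted p = 0.644).

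The Atr-deleted p53 libraries all carry the number prefix 1843, as does control replicate 1, whereas control replicates 2 and 3 carry 1845. Within prefix 1843 Cdh5 averaged 37.5 CPM in the 4 Atr-deleted libraries, beside 35.0 CPM in the 1 control, and Rgs5 averaged 166 CPM in the Atr-deleted libraries, beside 163 CPM in that control. With the prefix as a term in the fit the estimates of Cdh5, Flt1, Mfsd2a, Pdgfrb and Rgs5 turned positive, from 0.02 for Mfsd2a to 0.32 for Pdgfrb, and no member was called. Their adjusted p in that fit was 0.9999, and it compares the groups within prefix 1843, where there is 1 control.

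The lists of vascular genes were not called in this background either. Across the lists of other endothelial, pericyte, basement membrane, barrier and Wnt genes edgeR, DESeq2 and limma-voom called 0 genes, with 2, 0, 0, 2 and 2 at an unadjusted p below 0.05. Podxl, a sialomucin of the endothelial surface, had a log2 fold change of -0.31 ± 0.12 (adjusted p = 0.705), and the pump gene Abcg2 of -0.26 ± 0.08 (0.609). Vegfa was at 47.4 ± 4.64 CPM in Atr-deleted libraries and 35.7 ± 1.95 CPM in p53 controls, with a log2 fold change of 0.42 ± 0.10 that missed the threshold by edgeR (adjusted p = 0.353). In its angiogenic list edgeR and limma-voom called 0 of 19, 5 had an unadjusted p below 0.05 and DESeq2 called 1, Vegfa. Unadjusted p are those of edgeR, and 1142 of all 17361 genes tested in this background had one below 0.05.

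**Figure D4:**
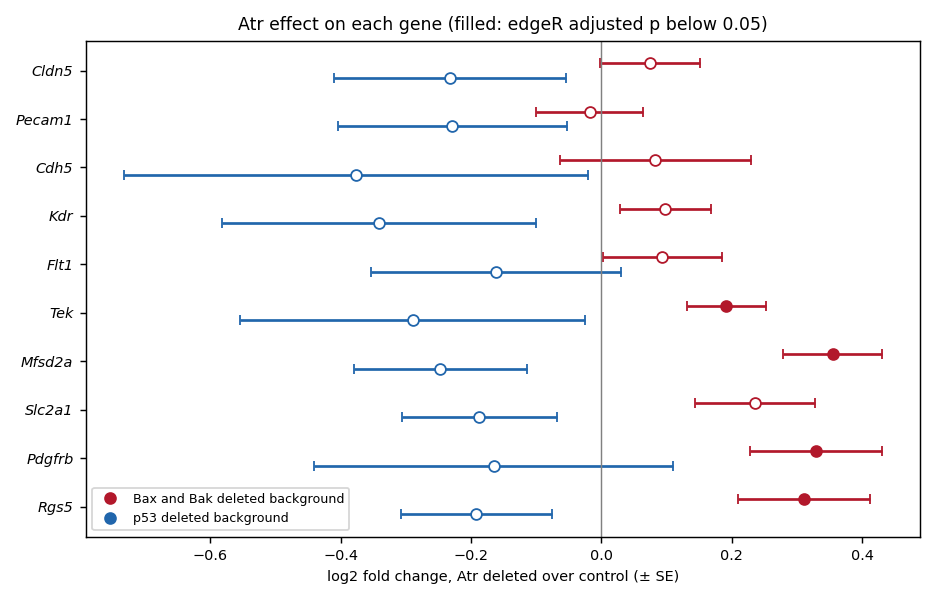
log2 fold change of each gene, Atr-deleted over control, with its SE, in the Bax and Bak deleted background (red) and the p53 deleted background (blue), filled where edgeR's adjusted p was below 0.05. The p53 estimates all lie below 0 and their SE bars are the wider ones for each gene, and the 4 filled points, Tek, Mfsd2a, Pdgfrb and Rgs5, are all in the Bax and Bak deleted background.

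Whether the effect of Atr differed between the backgrounds was tested as an interaction over the 16 libraries. The difference, Bax/Bak minus p53, passed for Mfsd2a (0.59 ± 0.15, adjusted p = 0.0139) and Rgs5 (0.49 ± 0.16, adjusted p = 0.0416). These 2 of 10 compare with 16.1% of all genes, 8.05% higher and 8.05% lower. The estimates of the other 8 genes were 0.20 to 0.49 with adjusted p of 0.0752 or more, Slc2a1 being the nearest (0.41 ± 0.15), so a difference was not shown for them. The test takes no account of the number prefixes. The 2 p53 controls above all Atr-deleted p53 libraries for Mfsd2a and Rgs5 are those of prefix 1845, the control of prefix 1843 lies among the Atr-deleted libraries, and with the prefix as a term the p53 estimates of these genes were 0.02 for Mfsd2a and 0.04 for Rgs5. The median of the 10 was 0.44, beside 0.02 over all genes. Mfsd2a passed in 21 of 23 alternatives and missed without p53 control replicate 2 or 3 (adjusted p = 0.0519 and 0.0502). Rgs5 passed in 12 of 23, and without p53 control replicate 2 or 3 no member was called. Without Atr-deleted p53 replicate 1 the count was 5, and without replicate 2, the lowest library, the same count of 2 was reached with values of 0.53 for Mfsd2a and 0.51 for Rgs5. Of all genes 1825 and 1628 were called without p53 control replicate 2 or 3. The all-gene counts were 2984 and 3562 without Atr-deleted p53 replicate 1 or 2.

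Among the lists, 3 of 23 other endothelial genes were higher in this difference, led by the phosphatase gene Ptprb (0.82 ± 0.18, adjusted p = 0.00675) and Ramp2 (0.55 ± 0.18, adjusted p = 0.0469), and 3 of 15 pericyte and smooth muscle genes, led by Cspg4 (1.21 ± 0.22, 0.00226) and Notch3 (0.59 ± 0.18, 0.0336). Ptprb and Cspg4 passed in each of 23 alternatives, Notch3 passed in 12 of them and Ramp2 in 8. Of 19 angiogenic ligands, receptors and Notch genes 3 were higher (Pdgfb, Notch1 and Notch4) and 2 lower. The lower ones were Hey1 (-0.48 ± 0.11, adjusted p = 0.0102) and Pgf (-0.65 ± 0.16, adjusted p = 0.0102), and of 15 hypoxia-response genes Ankrd37 was lower (-0.66 ± 0.21, adjusted p = 0.0424) and none higher. Pdgfb was at 20.5 ± 1.21 CPM in Atr-deleted Bax/Bak libraries and 13.7 ± 1.095 CPM in their controls, and at 13.8 ± 1.96 CPM in Atr-deleted p53 libraries and 15.3 ± 1.29 CPM in theirs. Its difference was 0.73 ± 0.14 (adjusted p = 0.00285). Of the Wnt and norrin list 3 of 15 were higher, with Wnt7a, a ligand that induces the barrier, at 0.90 ± 0.24 (0.0173) and Axin2 at 0.48 ± 0.10 (0.00357). Of 19 barrier transport and junction genes 2 were higher, Spock2 (0.49 ± 0.12) and Abcc4 (0.66 ± 0.19). Lists of other cell types moved in the same difference. Of 12 astrocyte and Bergmann glia markers 7 were higher, of 16 microglia and macrophage markers 4 (Cx3cr1, C1qb, C1qc and Laptm5), and of 5 oligodendrocyte precursor markers 3 (Olig2, Sox10 and Cspg4, the last also on the pericyte list), and of 13 cycling progenitor markers 7 were lower. Their part in the difference of the vascular genes was not tested.

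The controls of both backgrounds were also compared, Bax/Bak controls against p53 controls, since all other contrasts rest on them. None of the 10 genes passed by edgeR, DESeq2 or limma-voom, beside 18% of all genes called by edgeR, 8.71% higher and 9.32% lower. At an unadjusted p below 0.05 there were 2 of the 10, beside 32.7% of all genes. These 2 were Pdgfrb, at 42.8 ± 7.24 CPM in Bax/Bak controls and 29.4 ± 7.36 CPM in p53 controls (0.54 ± 0.23, adjusted p = 0.114), and Flt1, at 36.4 ± 6.08 CPM in Bax/Bak controls and 27.2 ± 3.20 CPM in p53 controls (0.42 ± 0.16, 0.0842). In both genes every Bax/Bak control was above every p53 control, and groups did not overlap for 31.5% of all genes. For Pdgfrb the margin was narrow, with the lowest Bax/Bak control at 35.5 CPM and the highest p53 control at 35.1 CPM. The backgrounds were deposited in separate tables and share no number prefix. Background, table and prefix therefore cannot be told apart in this comparison. Flt1 was called when Atr-deleted p53 replicate 2, which shares the estimate of spread, was left out (adjusted p = 0.0138).

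Flt1 makes a membrane receptor and a shorter soluble form that binds VEGF without signalling. A pair of protein-coding transcripts held most of its counts, Flt1-202, which encodes 1333 residues, and Flt1-203, which encodes 688. The share of Flt1-203 in the TPM of both was 50.3%, 45.8%, 48.1%, 47.5% and 44.7% in Atr-deleted Bax/Bak libraries and 50.7%, 49.8%, 53.2% and 51.2% in Bax/Bak controls. Only 1 Atr-deleted library reached the controls' range. The mean was 47.3 ± 2.17% in Atr-deleted libraries (SD, n = 5) and 51.2 ± 1.42% in controls (n = 4). The difference was -3.96 percentage points (exact permutation test, two-sided p = 0.0317, or 0.0635 adjusted over the 2 backgrounds). The two-sided p doubled the smaller tail. In the p53 background the shares were 38.6%, 51.4%, 47.4% and 39.4% in Atr-deleted libraries and 50.2%, 41.3% and 38.3% in controls (exact permutation, two-sided p = 0.971). With 4 and 3 libraries this two-sided test could not reach 0.05, so it could not have shown a difference. How the counting program divides reads between transcripts with shared exons bears on these shares. Of 35 transcripts of the 10 genes, 24 were tested in the Bax/Bak background and none was called by edgeR, 2 had an unadjusted p below 0.05, and 15.6% of all transcripts were called. In the p53 background 25 were tested and none was called, with 0 at an unadjusted p below 0.05, beside 0.00956% of all.

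**Figure D5:**
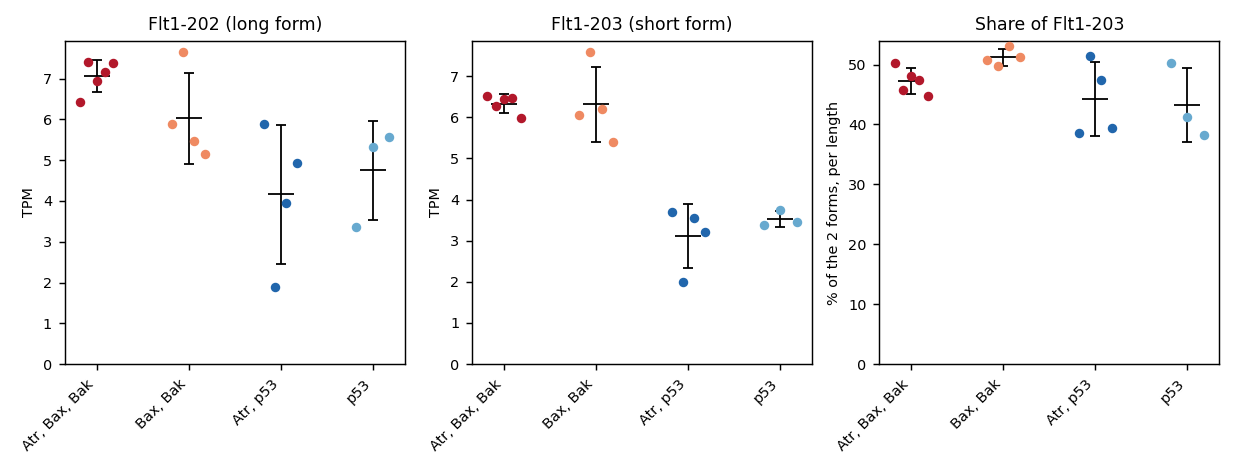
TPM of Flt1-202 (left) and Flt1-203 (middle) and the share of Flt1-203 in both (right), 1 point per deep library with the group mean and SD, axes starting at 0. The share lies between 44.7% and 50.3% in Atr-deleted Bax/Bak libraries and between 49.8% and 53.2% in Bax/Bak controls, and it spreads from 38.3% to 51.4% in the p53 background.

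The balance of mural to endothelial RNA is given as a description. The TPM of Pdgfrb and Rgs5, divided by that of the 6 endothelial genes Cldn5, Pecam1, Cdh5, Kdr, Flt1 and Tek, was 0.556 to 0.684 in Atr-deleted Bax/Bak libraries and 0.489 to 0.575 in their controls. It was 0.429 to 0.687 in Atr-deleted p53 libraries, highest in replicate 2, and 0.465 to 0.487 in p53 controls. The endothelial sum itself was 235 to 281 TPM in Atr-deleted Bax/Bak libraries, 217 to 264 TPM in Bax/Bak controls, 105 to 262 TPM in Atr-deleted p53 libraries and 181 to 247 TPM in p53 controls. TPM carry no TMM factors, and the scales place the backgrounds differently. Cldn5 averaged 81.4 CPM in Bax/Bak controls and 89.4 CPM in p53 controls, but 129 TPM in each. Lower TPM sums in the p53 background are therefore not read as less endothelial RNA. Rgs5 and Cldn5 weigh most in the ratio. In Atr-deleted Bax/Bak libraries Rgs5 averaged 141 TPM, beside a mean mural sum of 164 TPM. Cldn5 averaged 139 TPM there, beside a mean endothelial sum of 263 TPM.

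The genes whose profile over the 16 libraries was most like the mean standardised profile of those 6 endothelial genes were ranked by root mean square distance, over 14521 genes with a median distance of 1.39. The nearest outside the list were C130074G19Rik (0.205), the collagen gene Col15a1 (0.221), Cd93, an endothelial surface receptor (0.223), Tgm2 (0.284) and Mmrn1 (0.294). Of the 6 genes that make up the profile, Kdr (0.191), Cdh5 (0.219) and Tek (0.302) were nearest, followed by Pecam1 (0.41965), Flt1 (0.470) and Cldn5 (0.578). Of the other members Pdgfrb (0.526) was nearer than Cldn5, and Slc2a1 (0.638), Mfsd2a (0.723) and Rgs5 (0.822) were farther away. In the profile 1 library stood apart, Atr-deleted p53 replicate 2 at -3.05 standard deviations from the mean, with the other 15 libraries between -0.99 and 0.84. Without it, a check added after the data were seen, 3 of the 5 nearest genes stayed in that set (C130074G19Rik at 0.297, Tgm2 at 0.298 and Mmrn1 at 0.323), Pde8a (0.311) and Tbx18 (0.329) joined it, and Col15a1 (0.330) and Cd93 (0.349) left it. Rgs5 (0.624) was then nearer than Cldn5 (0.675). Libraries are shared by all these profiles, and no test was made of the distances.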

How the data were processed

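Per the labels' protocols, the meninges were stripped before extraction, RNA was poly-A selected, and TruSeq libraries that keep the strand were sequenced. The authors deposited estimated counts per transcript and lane, with no normalization recorded, in 1 table per background. The submitters' processing notes list the builds mm9 and GRCm38, edgeR and kallisto 0.42.4, with no role given. Estimated counts divide reads among similar transcripts, but at most 2.5% of any member's 31-base words occur in another gene.

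The 2 lanes were added, except the identical lanes of the shallow library, counted once. Sums per gene followed GENCODE M21 (GRCm38), with 92372 of 94080 identifiers matched, the rest holding 0.746% to 1.01% of counts in deep libraries, and rounded. Each background was fitted alone in edgeR 4.0.16 (R 4.3.3), using its default filter on expression, TMM factors, robust quasi-likelihood tests and Benjamini-Hochberg adjustment over all genes at 0.05. The interaction and the control comparison came from a fit of all 16 deep libraries. At these depths 1 count was worth at most 0.0233 CPM. Genes per list named in the text are up to 2 called genes by smallest p, or the first by p where none was called, and other named genes were chosen after their values were seen. Members and lists were chosen with earlier results of these data known. Sample numbers were given in accession order and pair nothing. Alternatives used DESeq2 1.42.0, limma-voom (limma 3.58.1), other scalings and filters, control subsets and each library left out. Tables were made with pandas 2.3.3, scipy 1.17.1 and numpy 2.4.6 in Python 3.11.15, and figures with matplotlib 3.10.9.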

Additional observations from a re-analysis of the deposited data

Results flagged for a closer look

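In Bax/Bak control replicate 3 Cldn5 was at 73.4 CPM, beside 83.4 to 84.6 CPM in the other 3 controls, which lay close together. Rgs5 was at 156 CPM, beside 212 to 221 CPM in the other 3. The gap to the nearest library over the group's range was 0.896 for Cldn5 and 0.863 for Rgs5, above the limit of 0.829 for 4 libraries. Of 30 groups tested this way chance flags about 1 in 20. Without this control the log2 fold change of Rgs5 in that background was 0.20 (adjusted p = 0.0184), and that of Cldn5 stayed uncalled.

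The Atr effects of Mfsd2a and Rgs5 differed between the backgrounds by 0.59 (edgeR interaction, adjusted p = 0.0139) and 0.49 (adjusted p = 0.0416). In both genes all 5 Atr-deleted Bax/Bak libraries were above their 4 controls, whereas in the p53 background the 4 Atr-deleted libraries were below 2 of 3 controls. Those 2 controls carry the number prefix 1845 and the third control carries 1843, as the Atr-deleted libraries do, and lies among them. The interaction does not take the prefix into account.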

How the results depend on the processing

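No paired analysis was possible because the labels give sample numbers and no replicate numbers, and numbers in accession order pair nothing. In the Bax/Bak background Mfsd2a passed in all 18 alternatives, Pdgfrb and Rgs5 in 13, Tek in 10 and Slc2a1 in 5, and in the p53 background no member passed in any of 16. At this depth counting error is small, so the number of libraries limits precision. The cause of the shifts below was not tested.

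Against Bax/Bak controls, 2 members were called with no filter, 2 with all 16 libraries in 1 fit, 2 with controls of series 100019 and 7 with those of 1842. Of all genes 7382, 6202, 7352 and 8053 were called in these fits, in the same order, beside 7756 in the main fit. With 100019 controls Cdh5 (-0.176), Kdr (-0.0478) and Flt1 (-0.0470) changed sign, with 1842 controls Pecam1 did (0.0620), and with upper-quartile scaling Pecam1 did (0.00313). Leaving out 1 library gave 1 to 5 members called (1 without Atr-deleted replicate 5, 5 without control replicate 2 or Atr-deleted replicate 4). Of all genes 6713 to 7771 were called in these fits. Pecam1 was then at -0.0722 to 0.0299 and Cdh5 at -0.0197 to 0.183. Of the members' transcripts 1 was called at a mean of at least 1 CPM, and 0 to 2 with 1 library left out. In the main fit 15.6% of all transcripts were called.

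Against p53 controls, the number of all genes called, 8, became 14 with no filter, 128 with DESeq2, 4 with limma-voom, 70 with all 16 libraries, 23 with the shallow library, 2 with the number prefix as a term and 2 to 13 with 1 library left out. With the prefix as a term Cdh5 (0.116), Flt1 (0.0521), Mfsd2a (0.0232), Pdgfrb (0.316), Rgs5 (0.0354), Anpep (0.0606), Crabp2 (0.0682) and Kcnj13 (0.276) turned positive. With 1 library left out Pdgfrb ranged from -0.394 to 0.000463.

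For the interaction, 1 member was called with no filter, beside 2560 of all genes. Leaving out 1 library gave 0 to 5 members (0 without p53 control replicate 2 or 3, 5 without Atr-deleted p53 replicate 1) and 1628 to 3562 genes. Between controls it gave 1881 to 4702 genes and 0 to 1 members, with Pecam1 at -0.116 to 0.00525, Kdr at -0.0466 to 0.163, Mfsd2a at -0.150 to 0.0425 and Rgs5 at -0.0146 to 0.191.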
